A study of Drosophila melanogaster with 24 samples.

Results

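The late warm response of Drosophila melanogaster testes was taken as the difference between RNA-seq libraries made 24 h and 12 h after adult males were moved to a restrictive temperature. It rests on 8 of the 24 libraries of a series on ovaries and testes, namely the 4 testis libraries at 24 h and the 4 at 12 h. The libraries were chosen by tissue and time alone, and each time holds 2 TraF and 2 Control libraries. Another 4 testis libraries, from unshifted males at 0 h, give levels beside the results and enter no test of the late change. For comparison, 8 ovary libraries at 12 and 24 h are used, 2 per group, from XX tra2ts1/tra2ts2 females in a w1118 background and from w1118 females. These were raised at 18 °C, shifted to 29 °C at 5 days, and their ovaries were freed of late egg chambers. The series asks which transcripts change when the isoform of the sex determination protein DSX is switched in adult gonads.

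TraF males were XY with y1 w*, the transgene UAS-Tra.F (insertion 20J7), tubP-GAL80ts (7) and tubP-GAL4 (LL7). Control males carried the same tubP-GAL80ts and tubP-GAL4 insertions and no UAS-Tra.F. All males were raised at 18 °C and shifted 5 days after eclosion. The extraction notes give 30 °C for the shift of testes, and the treatment notes give 29 °C. The tubulin promoter drives GAL4 in nearly all cells, GAL80ts represses GAL4 at the low temperature, and UAS-Tra.F encodes the female form of the splicing factor TRA, so the switch is not limited to a cell type. The 2 libraries of a group came from independent dissections. The labels give 15 to 20 flies of 1 age, divided among 3 vials for the 3 times. Both groups were shifted, and males kept at 18 °C for 12 or 24 h more are not part of the data used here. The labels give no clock time or light schedule, so hours in the warmth, time of day and fly age cannot be told apart.

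A fly moved to warmth first induces heat shock proteins, chaperones that bind unfolded protein through the transcription factor Hsf. The testis tube holds germ cells in a line from stem cells through spermatocytes to elongating spermatids, with somatic cyst cells around them and a sheath of muscle and pigment cells outside. Accessory glands, the ejaculatory duct, fat body and gut lie beside it in the abdomen.

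The 8 libraries held 17968544 to 32782474 gene counts. Levels are CPM, a gene's counts scaled to a fixed total per library by edgeR. A log2 fold change is 24 h over 12 h with genotype as covariate, and SE is its standard error. Genes with an adjusted p under 0.05 in the quasi-likelihood test of edgeR, by Benjamini-Hochberg over all 11967 tested, are named called. The tissue label was checked against spermatid genes. Of 48 listed spermatid genes in the files 47 were tested, and together they took 55080 to 71620 CPM in each of the 8 libraries. Since these are bulk samples, fewer cells of a type and less RNA per cell cannot be told apart.

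One library stood apart. In Control 12 h replicate 1, genes of the accessory gland, which makes seminal fluid proteins, took 5802 CPM over the 25 listed genes, against 6.593 to 20.86 CPM in the other 11 testis libraries. In all, 256 genes were at 1 CPM or more in it and over 4 times the highest of the other testis libraries. They made up 1.76% of its counts and at most 0.0128% of any other. Acp36DE, a seminal fluid protein, stood at 1320 CPM in it, against 8.90 CPM in Control 12 h replicate 2, 6.93 and 7.65 CPM in TraF at 12 h, and 10.1 to 11.4 CPM at 24 h. Counts that move strongly without this library are given with and without it.

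Few genes were called between 12 and 24 h. The test called 2 of 11967 genes (0.0167%), 1 in each direction. A cuticle protein gene, Cpr66Cb, fell, and CG10508 rose. Leaving out any 1 library other than the 2 of Control at 12 h ended both calls. A fit that paired same-numbered libraries within each genotype also called 0 genes. At an unadjusted p under 0.05, 451 genes were higher at 24 h (3.77% of those tested) and 240 were lower (2.01%). The 4 libraries at 24 h lay above all 4 at 12 h for 278 genes (2.32%) and below all 4 for 98 (0.819%). Without Control 12 h replicate 1, 693 of 12181 genes were higher and 445 lower at that p. Over the 11967 genes the counts were 682 and 438, beside which list counts without that library are read. Of these 11967 genes, 655 at 24 h lay above and 377 below all 3 libraries left at 12 h. Sets of 4 and 3 libraries separate more easily than sets of 4 and 4. DESeq2 called 61 genes on the counts of all 8 libraries, 57 higher (0.476%) and 4 lower (0.0334%).

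Cpr66Cb (FBgn0035875, arm 3L) encodes a structural protein of the chitin-based cuticle. It stood at 38.5 and 35.0 CPM in TraF libraries at 12 h and at 12.1 and 13.4 CPM at 24 h. In Control testes it stood at 42.0 and 36.8 CPM at 12 h and at 17.0 and 19.9 CPM at 24 h. All 4 libraries at 24 h lay below all 4 at 12 h, and the 24 h libraries were also below 3 of the 4 at 0 h, which ran from 18.4 to 35.1 CPM with Control 0 h replicate 1 the lowest. The change was -1.32 on the log2 scale (SE 0.119, adjusted p = 0.0141 by edgeR). It was -1.52 (SE 0.154) within TraF and -1.12 (SE 0.152) within Control, and -1.32 (SE 0.134, adjusted p = 0.0125 by edgeR) without Control 12 h replicate 1.

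CG10508 (FBgn0037060, arm 3L) stood at 11.5 and 11.3 CPM in TraF libraries at 12 h and at 22.3 and 26.2 CPM at 24 h. In Control testes it stood at 7.76 and 10.1 CPM at 12 h and at 18.4 and 21.1 CPM at 24 h. The groups did not overlap, and the 0 h libraries, at 4.64 to 9.77 CPM, lay below every 24 h library. Its late change was 1.11 (SE 0.116, adjusted p = 0.0272 by edgeR), or 1.04 (SE 0.117, adjusted p = 0.0217) without Control 12 h replicate 1. It was 1.10 (SE 0.177) within TraF and 1.12 (SE 0.18) within Control. Its exons overlap those of Trmt112, and as the strand setting of the counting is not given, reads of the overlap cannot be told apart.

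**Figure D1:**
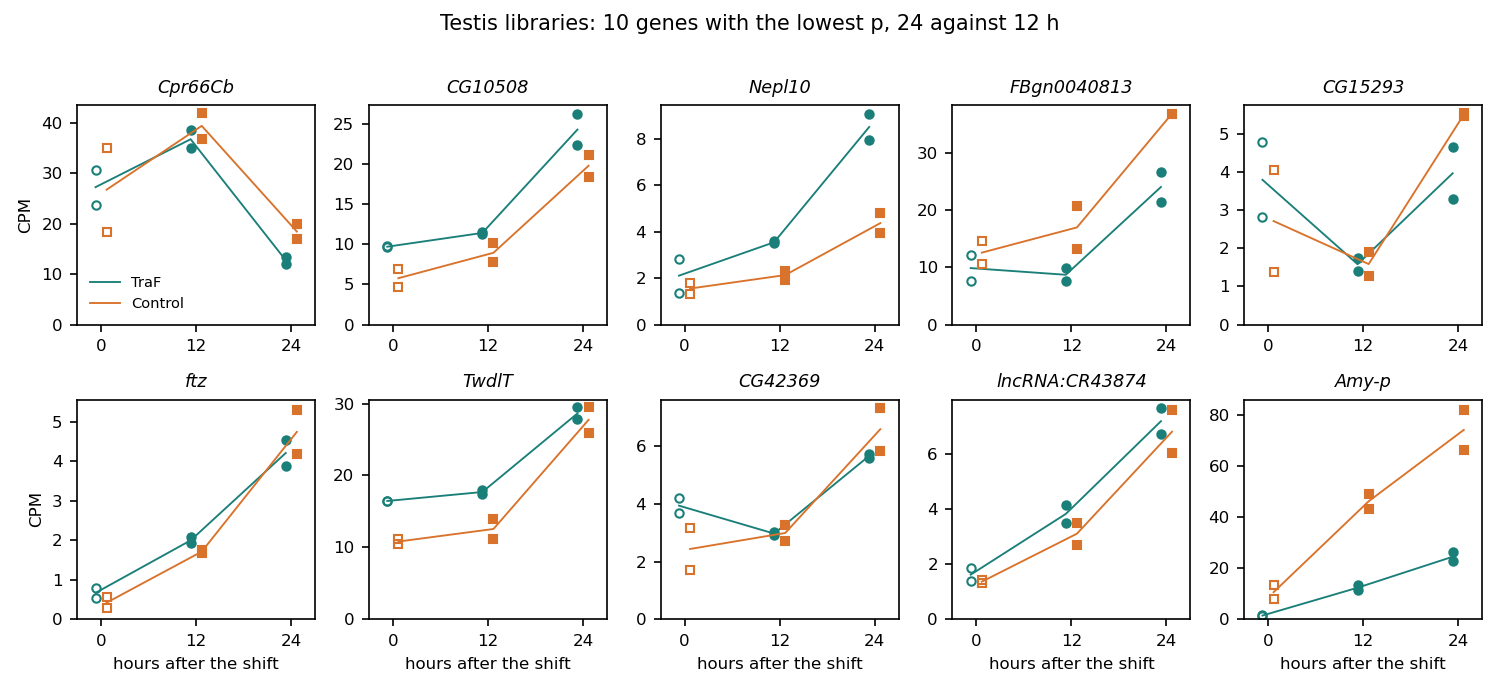
CPM of the 10 genes with the lowest p in 24 against 12 h (y axes from 0) by hours after the shift (x axes), with circles for TraF, squares for Control, open symbols for the 0 h libraries that enter no test, and lines through the means of 2 libraries. Cpr66Cb lies lower at 24 h than at 12 h in every library, from 35.0 CPM and above to 19.9 CPM and below, and the other 9 genes lie higher.

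Past the called genes, the 8 others among the 10 with the lowest p were higher in each 24 h library than in both 12 h libraries of its genotype and did not pass (adjusted p = 0.0654 to 0.103 by edgeR). The homeobox gene ftz, known for pair-rule patterning of the embryo, stood at 1.92 and 2.07 CPM in TraF libraries at 12 h and at 3.89 and 4.53 CPM at 24 h. In Control testes it stood at 1.67 and 1.75 CPM at 12 h and at 4.18 and 5.31 CPM at 24 h, which gave a change of 1.26 (SE 0.17) over both genotypes. At 0 h all 4 libraries lay between 0.281 and 0.784 CPM, so its libraries at 24 h were the highest of the 3 times in each genotype.

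Amy-p, an amylase that digests starch, followed the same order at unequal levels in the genotypes. It stood at 1.03 and 1.75 CPM in TraF libraries at 0 h, 13.2 and 11.4 CPM at 12 h and 26.3 and 22.6 CPM at 24 h. In Control testes the values were 7.79 and 13.3, then 49.2 and 43.2, then 66.4 and 82.0 CPM. Control libraries were above TraF libraries at each time, and all 24 h libraries lay above the 12 h libraries of their own genotype, although TraF at 24 h lay below Control at 12 h. The late change was 0.82 (SE 0.124, adjusted p = 0.103 by edgeR). Amy-p has a near copy, Amy-d, at 0.53 (SE 0.229), and reads of the copies may have been split between them.

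TwdlT, a cuticle protein of the Tweedle family, stood at 18.0 and 17.4 CPM in TraF and 13.9 and 11.2 CPM in Control libraries at 12 h. At 24 h it stood at 27.8 and 29.5 CPM in TraF and 29.6 and 25.9 CPM in Control testes, which gave a change of 0.91 (SE 0.123). TraF lay above Control at 0 h and 12 h, and the genotypes overlapped at 24 h. Nepl10, of the neprilysin family of peptidases, had a log2 fold change of 1.15 (SE 0.147), and its 24 h libraries ran from 3.95 to 9.07 CPM against 1.94 to 3.59 CPM at 12 h. The other 4 were CG15293 (1.55, SE 0.207), FBgn0040813 (1.28, SE 0.17), CG42369 (1.02, SE 0.142) and lncRNA:CR43874 (1.01, SE 0.152). CG15293 lay at 1.37 to 4.77 CPM at 0 h, 1.28 to 1.89 CPM at 12 h and 3.28 to 5.53 CPM at 24 h, so its 24 h libraries overlapped those at 0 h. Of 50 tested cuticle protein genes, a list made after the values were seen, 5 were higher (10%, against 3.77% of all genes) at an unadjusted p under 0.05. At that p 2 were lower (4%, against 2.01%), and the median was 0.09. As the list was chosen with the values known, these shares follow in part from the choice and are no support for it.

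Without Control 12 h replicate 1, 5 of 12181 genes were called. They were Cpr66Cb and CG10508 again, Nepl10 (1.23, SE 0.149, adjusted p = 0.0313 by edgeR), FBgn0040813 (1.47, SE 0.134, adjusted p = 0.0125) and Cyt-b5-r (1.27, SE 0.131, adjusted p = 0.0125). Cyt-b5-r, of the cytochrome b5 and fatty acid desaturase family, stood at 3.63 and 3.51 CPM in TraF libraries at 12 h and at 8.71 and 9.69 CPM at 24 h. In Control testes it stood at 2.24 and 5.49 CPM at 12 h, the first of these in the library that stands apart, and at 11.3 and 13.2 CPM at 24 h. The groups did not overlap with or without that library. DESeq2 called 37 genes without it, 32 higher and 5 lower, of which 28 were among its 61 calls.

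The 2 genotypes share no library at either time, so the genes that moved in one can be read in the other. Both changes came from a common fit of the 8 libraries, with a shared scaling and estimate of the spread. Genes chosen in one genotype thus depend in part on the libraries of the other. Within TraF and within Control edgeR called 0 genes each, with 406 and 468 at an unadjusted p under 0.05, and DESeq2 called 6 and 25. Of the 267 genes higher at 24 h in TraF at an unadjusted p under 0.05, 236 (88.4%) were also higher in Control, against 45.9% of all genes tested. Of the 139 genes lower in TraF, 74 (53.2%) were lower in Control, against 54.1% of all genes. Genes that were higher in TraF thus had the same direction in Control more often than all genes did, and genes that were lower had it at about that share, with no test made of either.

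Read the other way, 226 of 288 genes higher in Control (78.5%) were higher in TraF, against 51.9% of all genes, and 118 of 180 lower in Control (65.6%) were lower in TraF, against 48.1%. Without Control 12 h replicate 1 the shares were 230 of 267 (86.1%, against 50.9%) and 73 of 139 (52.5%, against 49.1%) for genes chosen in TraF in the fit of all 8 libraries. Control at 12 h then rests on 1 library, so shares for genes chosen in Control without that library are not given. The share among lower genes chosen in TraF thus stayed near that of all genes. Across 11005 genes the log2 fold changes of the genotypes had a Pearson r of -0.139 and a Spearman rho of 0.152, or -0.0272 and 0.215 without that library, as a description over genes that are not independent.

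**Figure D2:**
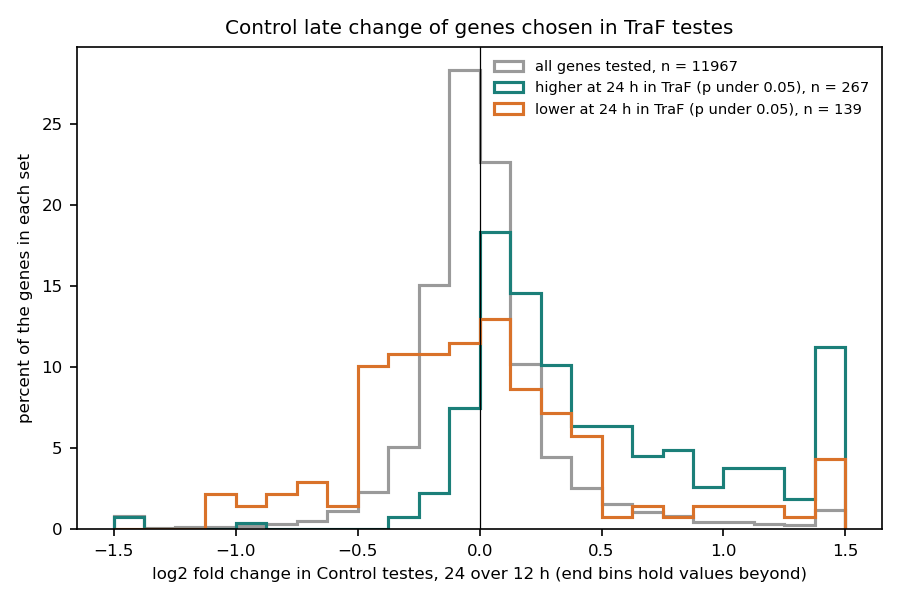
Percent of genes (y axis) by their log2 fold change in Control testes, 24 over 12 h (x axis), for all 11967 genes tested (grey), the 267 higher in TraF (teal) and the 139 lower in TraF (orange) at an unadjusted p under 0.05, with values beyond the axis put in the end bins. Of the 267 genes 88.4% lie above 0, and of the 139 genes 53.2% lie below it.

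The test of the difference between the genotypes' late changes called 0 of 11967 genes (0%), with 199 at an unadjusted p under 0.05, and DESeq2 called 0. Without Control 12 h replicate 1 edgeR called 0 and 431 genes were at that p. The transgene was on at both times. The transcript of tra, the gene that the transgene encodes, stood at 242 and 216 CPM in TraF libraries at 12 h and at 238 and 285 CPM at 24 h, against 5.38 to 7.44 CPM in the Control libraries. Its late log2 fold change within TraF was 0.20 (SE 0.179), and reads of the transgene and of the resident gene are counted together.

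The 5 genes with the lowest p in that difference had an adjusted p of 1 by edgeR. Ir7c, an ionotropic receptor, stood at 0.117 and 0.125 CPM in TraF libraries at 12 h and at 0.391 and 0.419 CPM at 24 h, against 9.56 to 11.7 CPM in all 4 Control libraries, with a difference of 1.77 (SE 0.415). Its TraF values rest on 3 and 3 counts at 12 h and 10 and 14 at 24 h. Ir7c thus met the floor of 1 CPM for named genes through the Control libraries. Cyp6a14, a cytochrome P450, stood at 11.7 and 12.5 CPM in TraF libraries at 12 h and at 2.84 and 3.36 CPM at 24 h, against 1.52 to 2.81 CPM in Control, with a difference of -1.46 (SE 0.373). At 0 h Cyp6a14 had stood at 0.774 to 1.57 CPM in all 4 libraries, so the TraF libraries at 12 h were the 2 high ones of the 12. The exons of Cyp6a14 overlap an annotated transposable element.

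CG15784 stood at 22.8 and 22.3 CPM in TraF libraries at 12 h and at 55.4 and 77.2 CPM at 24 h. In Control testes it stood at 38.5 and 30.2 CPM at 12 h and 34.2 and 49.4 CPM at 24 h, and the difference was 1.31 (SE 0.329). Obp56c, an odorant-binding protein, had a difference of -1.72 (SE 0.479), with TraF libraries at 0.877 and 0.898 CPM at 12 h and 0.195 and 0.359 CPM at 24 h and Control libraries at 2.90 to 3.90 CPM. Its TraF values rest on 21 and 23 counts at 12 h and 5 and 12 at 24 h, and it too met the floor through Control. lncRNA:CR32218 had a difference of -1.14 (SE 0.309). It stood at 5.47 and 4.84 CPM in TraF libraries at 12 h and 2.99 and 3.28 CPM at 24 h, against 2.62 and 3.13, then 3.72 and 4.18 CPM in Control testes.

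The genes that DESeq2 called are described next by the roles of those that are known. They were named for that call, and of the 61 edgeR called only Cpr66Cb and CG10508. All 61 DESeq2 calls had the same sign in both genotypes, as had 6424 of all 11967 genes tested. In 51 of the 61 the 4 libraries at 24 h lay apart from the 4 at 12 h, as in 376 of all genes. The calls were made on these same libraries, so both counts follow in part from the choice and are no support for it. Of the DESeq2 calls in both the annotation and the test, 4 of 58 were noncoding RNAs (6.9%, against 2.78% of all genes tested) and 5 were on the X (8.62%, against 16%). The median level of the 57 genes was 1.01 log2(CPM + 0.1) at 0 h, 1.61 at 12 h and 2.64 at 24 h. In 39 of the 57 (68.4%) the mean at 0 h was below both later times and in 18 it lay between them, against 58.2% below both among all genes with a positive change.

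Lsd-1, the perilipin that coats lipid droplets, was one of the calls. It stood at 5.01 and 6.01 CPM in TraF and 5.23 and 6.30 CPM in Control libraries at 12 h, and at 8.65 and 10.4, then 9.33 and 9.43 CPM at 24 h. It differed by 0.74 on the log2 scale (SE 0.126, adjusted p = 0.00332 by DESeq2 and 0.17 by edgeR), its groups did not overlap, and its exons overlap those of CG10214. Npc2g, of the sterol-binding NPC2 family, lay at 1.46 to 1.80 CPM at 12 h and 2.72 to 5.70 CPM at 24 h. Coq5, a methyltransferase of ubiquinone synthesis, lay at 8.86 to 10.5 CPM at 12 h and 12.7 to 14.3 CPM at 24 h. Neither gene's groups overlapped.

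The next 4 genes had uneven levels at 24 h. Cyp4g1, the cytochrome P450 of oenocytes that makes cuticular hydrocarbons and is also used as a fat body marker, stood at 62.1 and 0.820 CPM in TraF and 7.76 and 10.8 CPM in Control libraries at 12 h. At 24 h it stood at 153 and 500 CPM in TraF and 119 and 345 CPM in Control testes. All 4 libraries at 24 h lay above all 4 at 12 h, while at 0 h the TraF libraries stood at 117 and 95.0 CPM and the Control libraries at 2.83 and 3.09 CPM. The log2 fold change was 3.98 (SE 0.997), the highest value above 0 of all genes tested, and it did not pass (adjusted p = 0.354 by edgeR and 0.0564 by DESeq2).

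The genes CG9458 and CG6660, of the elongase family, and CG15531, of the desaturase family, followed Cyp4g1 at low levels. CG6660 stood at 0.334 and 0 CPM in TraF and 0 and 0.0474 CPM in Control libraries at 12 h, and at 0.479 and 2.54, then 0.387 and 1.24 CPM at 24 h. CG15531 lay at 0.474 to 0.751 CPM at 12 h, and at 24 h stood at 0.868 and 3.91 CPM in TraF and 1.08 and 3.22 CPM in Control testes. For Cyp4g1, CG9458, CG6660 and CG15531 alike, replicate 2 was the higher library at 24 h in each genotype. DESeq2 called the last 3 (adjusted p = 0.0100, 0.0155 and 0.0354) and edgeR none of the 4.

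Oenocytes and fat body lie outside the testis, and their genes were read as lists. Of 23 listed genes of oenocytes and hydrocarbon synthesis, a list put together after the values were seen, 20 were tested, 6 were higher (30%, against 3.77% of all genes) and 1 lower (5%, against 2.01%) at an unadjusted p under 0.05. Of the 20, 5 were higher without overlap, as were 2.32% of all genes. As the list was chosen with the values known, these shares follow in part from the choice and are no support for it. The median log2 fold change of the 20 was 0.10, against -0.01 over all genes tested. Without Control 12 h replicate 1, 8 of the 20 were higher and 2 lower at that p, against 682 and 438 of 11967 genes, and their median was 0.22. Their summed level was 792.2 to 869.9 CPM at 12 h and 971.3 to 1370 CPM at 24 h. Without Cyp4g1 it was 771 to 859 CPM at 12 h and 818 to 880 CPM at 24 h, so that the times overlapped. Beside those 4, the higher members were FASN2, a fatty acid synthase (0.84, SE 0.289), and Cpr, the P450 reductase (0.29, SE 0.112). The lower one was CG33110 (-0.26, SE 0.0993), while bond, Desat1, spidey and ACC lay within 0.14 of 0. Fad2, a desaturase of female hydrocarbons, was at 0 to 0.0947 CPM in Control libraries at all times. In TraF testes it stood at 3.81 and 4.47 CPM at 0 h, 2.92 and 0.0781 CPM at 12 h, and 0.0898 and 0.43 CPM at 24 h.

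Of 13 fat body markers in the files 9 were tested, and their median was -0.01. Obp99b (2.58, SE 0.506), Cyp4g1 and Lsp1beta (1.18, SE 0.497) were higher and Fbp2 (-0.60, SE 0.2) lower at an unadjusted p under 0.05, which is 33.3% and 11.1% against 3.77% and 2.01% of all genes, and 2 and 1 genes without Control 12 h replicate 1. DESeq2 called Obp99b alone. The storage protein Lsp2 (-0.23, SE 0.139) and the lipoprotein apolpp (0.22, SE 0.118) did not reach that p. The summed level of the 13 genes was 109.5 to 177.2 CPM at 12 h and 233.6 to 619.2 CPM at 24 h, with Cyp4g1 the larger part of it at 24 h. The part of other tissues in the late changes was not tested.

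**Figure D3:**
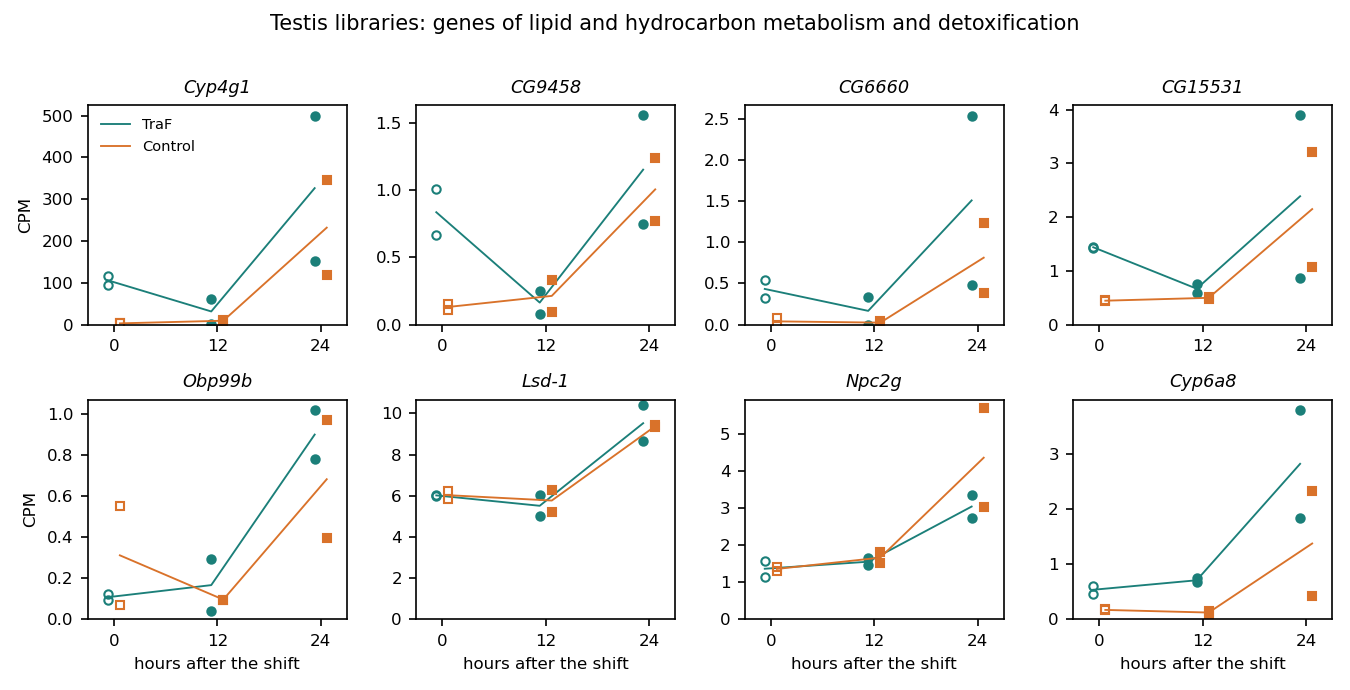
CPM (y axes from 0) by hours after the shift (x axes) of 8 genes of lipid and hydrocarbon metabolism and detoxification, with circles for TraF, squares for Control, open symbols for 0 h and lines through the means of 2 libraries. Cyp4g1 reaches 119 to 500 CPM at 24 h from 0.820 to 62.1 CPM at 12 h, and its spread between replicates is wide, while Lsd-1 lies close together at each time.

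Further DESeq2 calls with known roles were Mmp1, Idgf6, spz, e, GluRIIE and Rh5. Mmp1, a matrix metalloproteinase, stood at 33.3 and 32.6 CPM in TraF and 28.0 and 27.3 CPM in Control libraries at 12 h, and at 49.1 and 39.1, then 41.2 and 41.4 CPM at 24 h. Its late change was 0.49 (SE 0.0955) and its adjusted p 0.0100 by DESeq2. Idgf6, a chitinase-like growth factor, lay at 43.7 to 54.3 CPM at 12 h and 62.9 to 78.5 CPM at 24 h. The TraF libraries of Idgf6 were back near their 0 h levels of 77.0 and 79.5 CPM, and the Control libraries were above theirs of 42.5 and 45.3 CPM.

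The Toll ligand spz lay at 9.52 to 11 CPM at 12 h and 12.8 to 15.2 CPM at 24 h, and e, which encodes the beta-alanyl amine synthase of cuticle tanning, at 6.21 to 8.67 and 9.02 to 13.3 CPM. GluRIIE, a subunit of the glutamate receptor of the neuromuscular junction, lay at 5.01 to 6.79 CPM at 12 h and 8.92 to 9.37 CPM at 24 h. The opsin gene Rh5 lay at 2.05 to 3.08 CPM and 3.95 to 5.93 CPM. None of the 4 genes' groups overlapped. Exons of Mmp1, spz and GluRIIE overlap those of other genes, so their reads are less certain.

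The 4 genes that DESeq2 called lower were Cpr66Cb, Cyp6a14, CG6424 and BBS1. BBS1 encodes a subunit of the BBSome, which carries cargo in cilia. It stood at 16.1 and 15.8 CPM in TraF and 15.8 and 15.7 CPM in Control libraries at 0 h, 9.35 and 9.21, then 10.6 and 11.7 CPM at 12 h, and 6.23 and 6.95, then 7.28 and 6.44 CPM at 24 h. Each step down was without overlap, and its late change was -0.60 (SE 0.112, adjusted p = 0.0135 by DESeq2 and 0.203 by edgeR). CG6424 lay at 70.1 to 78.0 CPM at 12 h and 53.1 to 62.4 CPM at 24 h. Exons of BBS1 overlap those of Acbp4, and those of CG6424 overlap CG46315 and Uhg1.

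IFT52, a subunit of the intraflagellar transport complex, lay at 14.2 to 19.0 CPM at 12 h and 12.8 to 13.8 CPM at 24 h, with a change of -0.40 (SE 0.108, adjusted p = 0.419 by edgeR). Of 6 tested genes of cilium transport and the BBSome, a list made after the values were seen, 2 were lower at an unadjusted p under 0.05 (33.3%, against 2.01% of all genes), BBS1 and IFT52, and the median was 0.07. Of 5 tested nicotinic acetylcholine receptor subunits, a list made the same way, 3 were lower at that p (60%, against 2.01%). They were nAChRbeta1 (-0.46, SE 0.107), nAChRalpha1 (-0.40, SE 0.126) and nAChRalpha6 (-0.53, SE 0.203), each of which overlapped between the times, and the list's median was -0.40. Both lists were chosen with the values known, so their shares follow in part from the choice and are no support for it.

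The 0 h libraries were read for where these genes stood before the shift. Of the 240 genes lower at an unadjusted p under 0.05, the mean at 0 h was above both later times in 164 (68.3%), against 52.6% of all genes tested with a change at or below 0. Of the 451 higher genes, 289 (64.1%) had their 0 h mean below both, against 58.2%. The 12 h level enters both steps, so these shares are read only against those of all genes. The median level of the lower genes was 3.25 log2(CPM + 0.1) at 0 h, 3.18 at 12 h and 2.57 at 24 h. For the higher genes it was 1.69, 1.86 and 2.52. Both medians thus moved less from 0 to 12 h than from 12 to 24 h, the step on which the genes were chosen.

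Heat shock genes were called in neither direction, in a test that called 0.0167% of all genes. Of 17 inducible heat shock genes in the files 12 were tested, and 0 were at an unadjusted p under 0.05. Of all genes 3.77% were higher and 2.01% lower at that p, so 0 of 12 is near their share. The median log2 fold change of the 12 was -0.07, or -0.07 without Control 12 h replicate 1, against -0.01 over all genes. Hsp23, a small heat shock protein, stood at 169 and 178 CPM in TraF and 170 and 155 CPM in Control libraries at 0 h. At 12 h it stood at 438 and 390, then 547 and 348 CPM, and at 24 h at 411 and 328, then 422 and 384 CPM. Both times lay above 0 h in every library and overlapped each other, with a late change of -0.17 (SE 0.148).

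Hsp26, another small heat shock protein, had a late change of 0.07 (SE 0.0927). It lay at 374 to 451 CPM at 0 h, 534 to 683 CPM at 12 h and 592 to 676 CPM at 24 h. Hsp83, the fly Hsp90, lay at 1900 to 2570 CPM at 12 h and 1990 to 2320 CPM at 24 h, with a change of -0.02 (SE 0.117). Hsp70Bb, a strictly inducible Hsp70, stood at 10.1 and 11.3 CPM in TraF libraries at 12 h and at 12.0 and 12.1 CPM at 24 h, against 0.381 to 1.56 CPM in the Control libraries. Its late change was -0.14 (SE 0.337), and it has near copies, among them Hsp70Bc (-0.55, SE 0.323), that may share its reads. Of 19 constitutive chaperones and 12 genes of endoplasmic reticulum stress, 0 were at an unadjusted p under 0.05, with medians of -0.06 and -0.10.

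Clock genes, which cycle over the day in many fly tissues, were not called either. Of 14 tested clock genes 0 were at an unadjusted p under 0.05, again near the share of all genes (3.77% higher and 2.01% lower). Log2 fold changes of the 14 ran from -0.23 to 0.23, and the median was 0.05. The period gene per was at 0.08 (SE 0.237), tim at 0.14 (SE 0.154), Clk at 0.00 (SE 0.277) and cyc at -0.14 (SE 0.118). The repressor genes vri and cwo were at -0.05 (SE 0.337) and 0.23 (SE 0.145), Pdp1 at 0.08 (SE 0.113) and the photoreceptor gene cry at 0.07 (SE 0.127).

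Replicates of some clock genes lay far apart. Clk, a transcription factor of the clock, stood at 20.5 and 61.3 CPM in Control libraries at 12 h, with the library that stands apart the lower, and at 42.4 and 39.2 CPM at 24 h. In TraF testes it stood at 50.6 and 44.5 CPM and then 40.8 and 56.2 CPM. vri stood at 29.1 and 31.7 CPM in Control libraries at 12 h and 29.5 and 17.3 CPM at 24 h, against 5.99 to 16.7 CPM in TraF libraries. Exons of per, tim and cry overlap those of other genes.

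**Figure D4:**
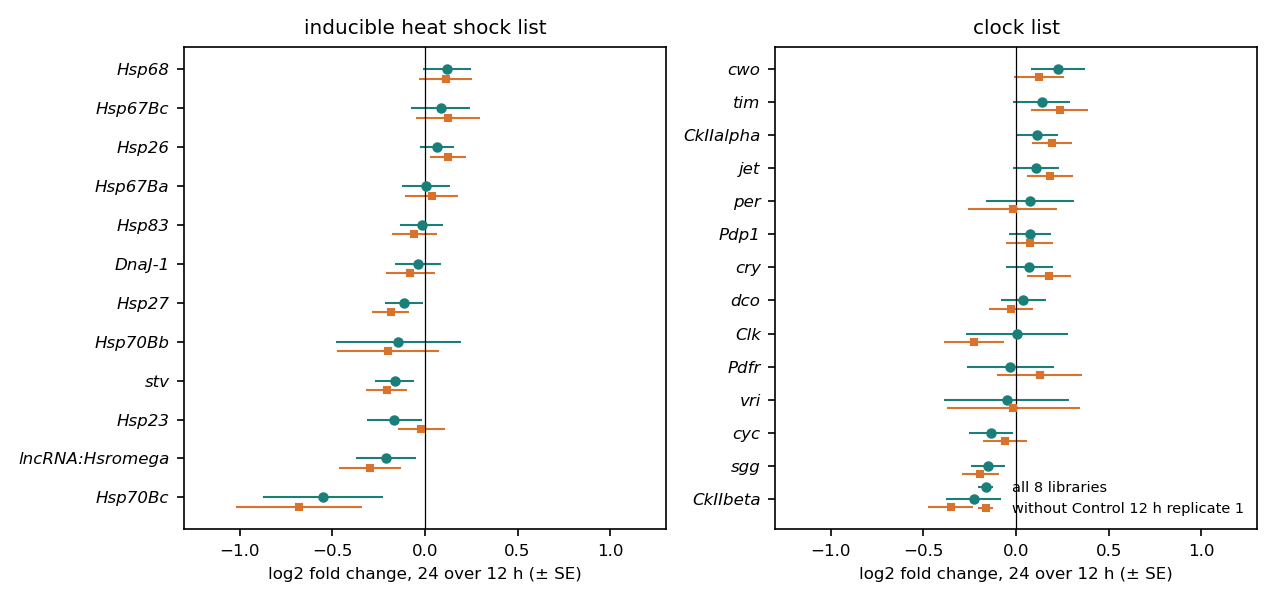
Late log2 fold change, 24 over 12 h, with its SE (x axes) for the 12 tested inducible heat shock genes and the 14 tested clock genes (y axes), from all 8 libraries (teal circles) and without Control 12 h replicate 1 (orange squares). No member reached an unadjusted p under 0.05 with all 8 libraries, and the clock genes lie between -0.23 and 0.23.

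Detoxification genes, which encode P450 enzymes and conjugating enzymes, held more higher genes than the background. Of 135 tested, 17 were higher (12.6%, against 3.77% of all genes) and 3 lower (2.22%, against 2.01%) at an unadjusted p under 0.05. Of the 135, 10 were higher without overlap, as were 2.32% of all genes. With Control 12 h replicate 1 left out, 30 were higher and 3 lower. Over all 11967 genes the counts also grew, from 451 to 682 higher and from 240 to 438 lower. The test called 0 of them, DESeq2 called Cyp6a8 higher and Cyp6a14 lower, and the median was 0.09, or 0.24 without Control 12 h replicate 1. Genes that share sequence and position count here as separate members, and Cyp4g1 is counted here as well as in the oenocyte and fat body lists.

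The glucuronosyltransferase gene Ugt303B2 stood at 1.21 and 1.05 CPM in TraF and 0.761 and 1.14 CPM in Control libraries at 12 h, and at 1.74 and 2.34, then 2.28 and 2.26 CPM at 24 h. The late change was 1.03 (SE 0.217, adjusted p = 0.243 by edgeR). Its paralogs Ugt303B1 (1.15, SE 0.316) and Ugt303B3 (0.84, SE 0.254) were also higher without overlap, and reads may be split among the 3. Cyp6a8 stood at 0.668 and 0.742 CPM in TraF and 0.143 and 0.0947 CPM in Control libraries at 12 h, and at 3.80 and 1.84, then 0.426 and 2.32 CPM at 24 h. Its times overlapped, as Control 24 h replicate 1 lay below both TraF libraries at 12 h.

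None of the tested genes of digestion and fasting was called by edgeR, and DESeq2 called Amy-p alone. Of 17 gut markers in the files 4 were tested and 2 were at 0 in all 8 libraries. Amy-p, Amy-d and Mal-A6, a maltase (0.43, SE 0.151), were higher at an unadjusted p under 0.05 (75%, against 3.77% of all genes), and 2 of the 4 without Control 12 h replicate 1. Their list summed to 23.5 to 81.6 CPM at 12 h and 35.39 to 132.7 CPM at 24 h, and whether gut RNA entered the libraries was not tested. Of 22 tested fasting and nutrient genes, 4 were higher (18.2%) and 1 lower (4.55%, against 2.01% of all genes) at that p. Lip4, a lipase, was at 0.39 (SE 0.117), tobi, an alpha-glucosidase that responds to diet, at 1.33 (SE 0.443), Tps1, a trehalose synthase, at 0.52 (SE 0.18), and AcCoAS, the acetyl-CoA synthetase, at 0.45 (SE 0.158), while Lip3, a lipase induced by fasting, was at -0.70 (SE 0.208).

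Few genes of the germline lists and the dosage compensation list were at an unadjusted p under 0.05, where 3.77% of all genes were higher and 2.01% lower. Of 47 tested spermatid genes, 17 of stem cells and spermatogonia, 8 of dosage compensation and 5 on the Y, 0 were at an unadjusted p under 0.05, and their medians ran from -0.05 to 0.01. Of 12 tested meiotic arrest genes, which switch on the spermatocyte programme, mia alone was at that p (8.33%, against 3.77% of all genes higher). It stood at 35.3 and 37.8 CPM in TraF and 34.5 and 35.2 CPM in Control libraries at 12 h, and at 44.9 and 45.1, then 43.2 and 44.2 CPM at 24 h, without overlap and with a change of 0.30 (SE 0.0787, adjusted p = 0.377 by edgeR). At 0 h it had stood at 20.7 to 25.4 CPM. Of 12 genes of meiotic entry, Cdk1 was at 0.26 (SE 0.111) and twe, the germline Cdc25 phosphatase, at 0.08 (SE 0.108).

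Somatic and signalling lists had medians near that of all genes. Of 24 tested testis soma genes, sog, a secreted BMP antagonist, alone was at an unadjusted p under 0.05 (4.17%, against 3.77% of all genes higher). It was at 0.43 (SE 0.166), and the median of the list was -0.00. Of 10 JAK/STAT and niche genes and 17 ecdysone genes 0 were at that p, with medians of -0.06 and -0.08. Of 10 genes of immediate early response and MAPK signalling, Arc1, which encodes a capsid-forming protein of neurons, was at 0.51 (SE 0.162). It stood at 273 and 254 CPM in TraF and 424 and 249 CPM in Control libraries at 12 h and at 427 and 357, then 501 and 427 CPM at 24 h.

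Of 17 tested apoptosis and DNA damage genes, 2 were higher at an unadjusted p under 0.05 (11.8%, against 3.77% of all genes). They were Xrp1, a stress transcription factor (0.29, SE 0.107), and the cell death gene grim (0.51, SE 0.202). The count was 1 of the 17 without Control 12 h replicate 1, and the median was 0.15. Of 21 tested antimicrobial peptides and PGRPs, 3 were at that p, all higher (14.3%, against 3.77% of all genes). They were PGRP-LF (0.68, SE 0.216) and PGRP-LC (0.32, SE 0.126), of the peptidoglycan recognition family, and CecB, a cecropin, at under 1 CPM (1.76, SE 0.65). Of 98 tested receptors and odorant-binding proteins, 3 were higher (3.06%, against 3.77% of all genes) and 7 lower (7.14%, against 2.01%). The counts were 4 and 4 without Control 12 h replicate 1. Ir76b, an ionotropic co-receptor, stood at 2.03 to 3.46 CPM at 12 h and 1.35 to 1.90 CPM at 24 h, lower without overlap (-0.74, SE 0.164).

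Of 19 tested muscle sheath genes, 2 were lower at an unadjusted p under 0.05, Mlc1, a myosin light chain (-0.37, SE 0.133), and TpnC47D, a troponin C (-0.44, SE 0.174), which is 10.5% against 2.01% of all genes. The count was 0 without Control 12 h replicate 1. Their list had a median of -0.23, and its summed level overlapped between the times, at 2136 to 3045 CPM at 12 h and 1529 to 2838 CPM at 24 h. Of 10 tested hemocyte genes, 10 of oxidative stress and 3 Turandot stress genes 0 were at that p. Of 6 pigment cell genes 1 (16.7%), cn, of 2 duct genes 1 (50%) and of 15 sex determination genes 1 (6.67%), dpn (0.67), were higher at it. Of all genes 3.77% were higher, and in lists this small 1 member sets the share. The pigment cell count was 0 without Control 12 h replicate 1. Of 85 respiratory chain and 45 proteasome genes 0 were at that p, and of 87 ribosomal protein genes 1 (1.15%), RpS15Ab (0.23, SE 0.0898). Without Control 12 h replicate 1, 2 respiratory chain, 0 proteasome and 6 ribosomal protein genes were higher at that p, against 682 of all 11967 genes. The ribosomal protein median was 0.00 with all libraries and 0.18 without Control 12 h replicate 1, in which these genes summed to 26820 CPM against 16250 CPM in its partner.

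**Figure D5:**
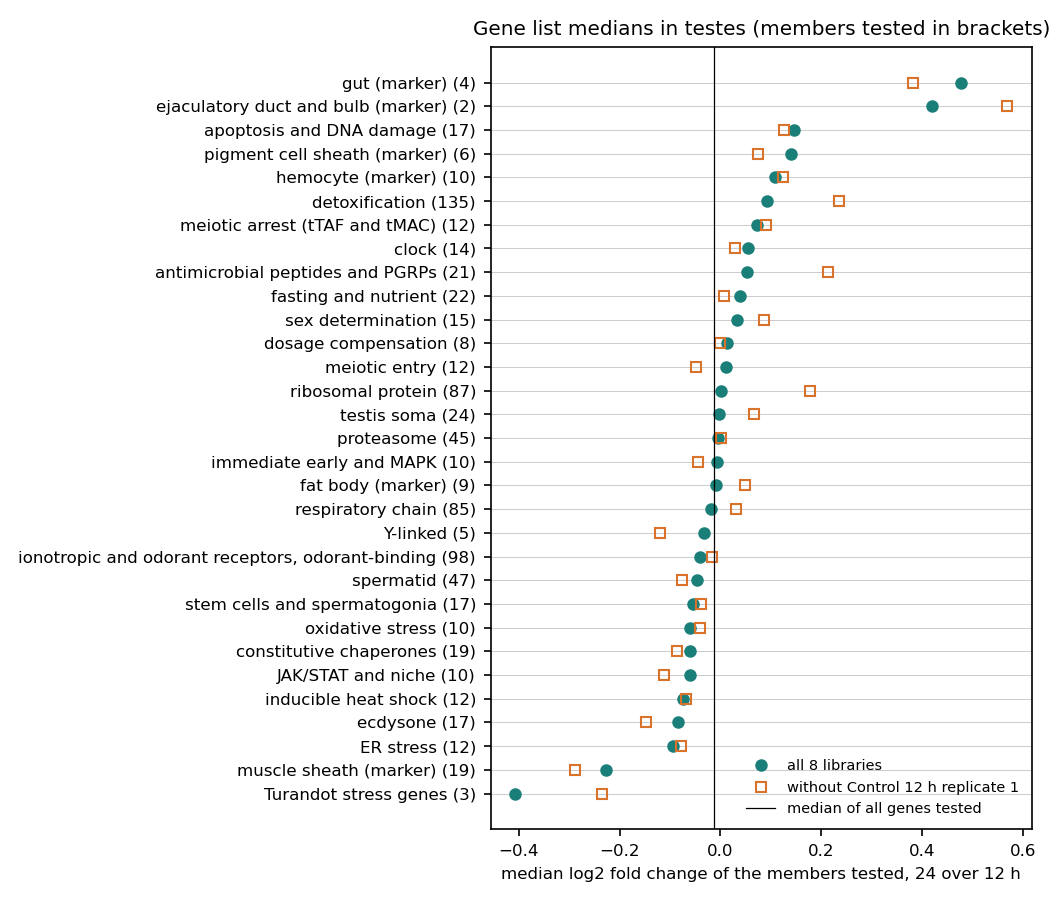
Median log2 fold change, 24 over 12 h (x axis), of the tested members of 31 gene lists (y axis, number tested in brackets), with all 8 libraries (teal circles), without Control 12 h replicate 1 (orange squares) and the median of all genes tested (line). The accessory gland list, at -6.12 with that library and 0.70 without it, is left out, and the median of all genes is -0.01.

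The accessory gland list shows what 1 library does to a list. Of 25 listed genes in the files 11 were tested, 4 were lower at an unadjusted p under 0.05, and the median was -6.12. Without Control 12 h replicate 1 the median was 0.70. When Control 12 h replicate 2 was left out in its place, 111 genes were called, 92 of them lower, and 89 of the 92 were among the genes that stood over 4 times higher in replicate 1. With the genes tested held to those of all 8 libraries the same step called 3, Cpr66Cb, CG10508 and CG16772.

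The late change in ovaries, from tra2ts and w1118 females and sharing no library with the testes, was read for the same genes. There edgeR called 0 of 8525 genes (0%), with 217 at an unadjusted p under 0.05, and DESeq2 called 2. Of the 451 genes higher in testes, 267 had a value in ovaries and 170 of these (63.7%) were higher there too, against 48.4% of all genes with a value. Of the 240 lower genes, 116 had a value and 64 (55.2%) were lower, against 51.6%.

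In ovaries Amy-p was at 2.24 (SE 0.755), Cyt-b5-r at 2.15 (SE 0.581), Obp99b at 1.82 (SE 0.504), CG42369 at 1.82 (SE 0.622) and FBgn0040813 at 1.73 (SE 0.664), and none passed (adjusted p = 0.777 by edgeR). Their levels rested in part on tra2ts 24 h replicate 2, where FBgn0040813 stood at 97.1 CPM against 7.20, 20.9 and 7.88 CPM in the other 24 h ovary libraries. Cyp4g1 was at -0.23 (SE 0.676) in ovaries, and Cpr66Cb, CG10508, ftz and TwdlT were too low there to be tested. The test of the difference between tissues called 0 of 12282 genes by edgeR, with 502 at an unadjusted p under 0.05, and no gene's late change was shown to differ between testes and ovaries.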

How the data were processed

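Libraries were made from total RNA by the TruSeq RNA v2 protocol, per the labels. Reads were aligned by the authors with TopHat 1.4.1 to build dm3 and counted with HTSeq, per the submitters' processing notes; its version, annotation and strand setting are not given in the sources used here. The authors deposited raw read counts per gene, 15406 genes and 5 summary lines per library; the latter were left out (no feature, 2 to 2.44%, and ambiguous reads, 3.86 to 4.24%, of the 8 libraries). Symbols were found for 14732 identifiers. Chromosome arms and exon overlaps were looked up by identifier in an annotation of a later build, without coordinates, and the planned promoter motif count was not run, as no promoter sequence was used here.

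Counts were filtered by filterByExpr, scaled by TMM and tested with edgeR 4.0.16 (quasi-likelihood, two-sided, Benjamini-Hochberg) in R 4.3.3, with DESeq2 1.42.0 as alternative. The late change had genotype as covariate. The genotype difference came from a fit of 4 group means, and the ovary contrast from its own 8 libraries. The procedure was tested on simulated data with the same spread for all genes and no library apart, which is simpler than these data. With 2 libraries per group, each of 17968544 or more counts, both the spread between dissections and, for genes of few counts, counting error limit precision. Named genes were the 10 with the lowest p at 1 CPM or more, as fewer than 10 were called, the 5 with the lowest p in the genotype difference, up to 4 per list by p, and fixed clock genes, tra and Acp36DE; DESeq2 calls and others were named after their values were seen. The members, the 32 lists and the rules were chosen with earlier results of these data known, and 4 lists were added after the values were seen. Alternatives were another scaling, no filter, DESeq2, a replicate block, a robust prior, all 12 testis libraries, removal of accessory gland and duct genes, and each library left out.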

Additional observations from a re-analysis of the deposited data

Results flagged for a closer look

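In groups of 4 libraries, the gap of the most extreme library to its neighbour was divided by the group's range, and 5 of 114 groups examined were above Dixon's critical value; chance marks about 1 in 20. At 12 h Control 12 h replicate 1 stood apart for Acp36DE (0.953) and for the median level of the receptor and odorant-binding list (0.932), the library with accessory gland transcripts. At 24 h Control 24 h replicate 2 stood apart for CG42369 (0.834) and for the median level of the fat body list (0.896). TraF 24 h replicate 2 stood apart for the median level of the respiratory chain list (0.836).

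The late change of lncRNA:CR32218 went one way in TraF and the opposite way in Control testes, in every library of each, with a difference of -1.137 (log2). The edgeR test of this difference gave an adjusted p of 1, so it was not shown to differ.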

How the results depend on the processing

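The count of genes called between 12 and 24 h in testes was 2. It was also 2 with RLE scaling, without a filter, in a fit of all 12 testis libraries (CG10508 and TwdlT, with Cpr66Cb lost) and with accessory gland and duct genes removed. It was 61 with DESeq2 and 8 with a robust prior, and 0 to 111 with each library left out. Among alternatives chosen after seeing the data, it was 5 without Control 12 h replicate 1 over the same genes, 3 without Control 12 h replicate 2 over the same genes, and 37 and 65 with DESeq2 without these libraries. The cause of these differences was not tested. DESeq2 called 6 genes within TraF, 25 within Control and 2 in ovaries. Leaving out each library gave 0 to 3 calls within TraF, 0 to 300 within Control, 0 to 118 for the genotype difference and 0 to 1 in ovaries.

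Same-numbered libraries deviated together with correlations of 0.0167 to 0.444, not all over 0.1, and the main test did not pair them. Between 12 and 24 h the correlation was 0.2 in TraF and 0.0167 in Control, the latter with the library that stands apart. These values cannot decide whether same-numbered libraries came from a common set of flies. With a replicate block 3 genes were called in testes, 6 within Control and 2 for the genotype difference, and with the block within genotype 0 in testes.

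With a library left out, uncalled genes changed sign, per (-0.1613 to 0.259), vri (-0.4598 to 0.1686), Clk (-0.2269 to 0.3855), tra (-0.0583 to 0.1453), cry (-0.01846 to 0.1779), Pdp1 (-0.01053 to 0.1567) and Acp36DE (-4.442 to 0.4364). The median of the accessory gland list ran from -8.614 to 0.7021. With 2 libraries a group, genes at under 1 CPM have wide errors, and small changes are not detectable.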
